A study of Sus scrofa with 20 samples.

Results

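FCGR2B, SPIB, BLNK and FAM129C are 4 genes of the B cell, read here in the ileal mucosa of suckling and early weaned piglets. They were read through all the probe sets that the array's annotation gives to one of these 4 symbols, which came to 6 of the 10069 probe sets with a single gene symbol, or 4 of 6765 genes. FCGR2B, SPIB and BLNK had 1 probe set each and FAM129C had 3. The genes were chosen by measured values of these same arrays. FCGR2B was picked from the largest differences between S14D and S21D and FAM129C from the largest between S28D and S35D, and the comparison that brought in SPIB and BLNK is not recorded. Their differences between groups are therefore given as a description with no test.

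The mucosa was scraped from the ileum of crossbred piglets (Landrace, Large white and Duroc) and its RNA was hybridised to the Affymetrix Porcine Genome Array, 1 array for each of 20 piglets. The suckling groups stayed with the sow and had no access to its feed, and were taken at an age of 14 days (S14D, n = 3), 21 days (S21D, n = 4), 28 days (S28D, n = 4) and 35 days (S35D, n = 3). In the remaining 2 groups the piglets were weaned at 21 days onto a commercial weanling diet. These were 28 days old and 7 days past weaning (21W28D, n = 3) or 35 days old and 14 days past weaning (21W35D, n = 3). The comparisons follow the age of the suckling piglets and set weaned against suckling piglets of the same age. The litter of each piglet is not given by array, so the p-values measure the spread between single piglets, which may share litters.

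B lymphocytes recognise antigen through a membrane immunoglobulin whose signal passes through CD79A and CD79B to the kinases LYN, SYK and BTK. FCGR2B is the low-affinity Fc receptor that inhibits this signal when antigen and antibody bind the cell together. BLNK is the adaptor that carries it from SYK to BTK and phospholipase C gamma, SPIB is an Ets family transcription factor needed for antigen receptor responses and germinal centres, and FAM129C is the B cell member of the Niban family. In the pig, a long continuous Peyer's patch fills the distal ileum and is rich in B cell follicles. FCGR2B is also made by macrophages, and SPIB also by plasmacytoid dendritic cells and by the M cells that overlie follicles.

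The arrays gave log2 values between 2.08 and 16.4, of which 41.6% lay within 1 unit of the lowest value, so a value near 2 marks the floor of the method and not a measured level. Values were compared only within a probe set. The mucosal identity could be checked against 1 of 8 defining B cell markers, CD79B, since the remaining 7 have no probe set named by the annotation used here. Doubt attaches to the labels of 2 groups. Over all probe sets the 3 arrays labelled S35D were nearer to the 21W35D mean than to the S28D mean by correlation, while 2 of 3 labelled 21W28D were nearer to S28D than to 21W35D. The groups nearer to each other share an age, so nearness alone cannot decide on the labels. By the methods' t-test with its fold limit, 1530 of all probe sets differed from S28D to S35D. From S28D to 21W28D 36 did, and from S21D to 21W28D 130. The paper reports the reverse order, with far more genes differing shortly after weaning than between the older suckling groups. Whether the labels are right was not tested. Differences resting on these 2 groups are given with the labels as deposited and with the labels exchanged. The array of 21W35D replicate 2 also stood apart, with a correlation of 0.970 with the mean of its own group, against 0.986 to 0.997 for the other arrays.

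FCGR2B had the widest range of the 4 genes. Its values were 4.83, 3.44 and 2.29 in S14D, then 7.87, 7.97, 8.65 and 7.24 in S21D and 7.28, 8.41, 7.82 and 8.14 in S28D. In the arrays labelled S35D it read 4.27, 5.64 and 6.16, and in the weaned piglets 5.70, 8.20 and 7.99 (labelled 21W28D) and 8.13, 2.29 and 8.18 (21W35D). The 8 arrays of S21D and S28D formed one band above all 3 arrays of S14D and all 3 labelled S35D. The weaned groups were split, since 2 of 3 arrays in each lay inside that band and the third lay under it, at the floor in the case of 21W35D replicate 2. The group means were 3.52 ± 1.27 in S14D, 7.94 ± 0.58 in S21D, 7.91 ± 0.49 in S28D, 5.36 ± 0.98 in S35D, 7.29 ± 1.39 in 21W28D and 6.20 ± 3.38 in 21W35D (SD). The range over the 20 arrays was 82.0-fold, and because 3 arrays did not reach 4 log2 units it is bounded by the floor. The probes of Fc receptor genes can share sequence, and cross-hybridisation between them was not tested.

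BLNK was bright in every array. It read 13.11, 12.72 and 12.27 in S14D, 13.76, 13.75, 14.12 and 13.74 in S21D, and 13.42, 14.02, 13.81 and 14.04 in S28D. The arrays labelled S35D gave 12.27, 13.15 and 12.96, those labelled 21W28D 13.12, 14.00 and 13.70, and those of 21W35D 13.41, 12.40 and 13.29. The pattern was that of FCGR2B in a narrower range of 3.63-fold. S21D was the tightest group (13.84 ± 0.19), and 3 of its 4 arrays lay close together, with replicate 3 above them. All 3 arrays of 21W35D were lower than every array of S28D, including replicates 1 and 3 in which FCGR2B was inside the S28D range.

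SPIB was also well above the floor throughout. Its values were 11.04, 9.65 and 8.02 in S14D, 11.88, 11.64, 12.12 and 12.17 in S21D, and 11.14, 12.14, 11.89 and 12.18 in S28D. The arrays labelled S35D gave 9.06, 11.03 and 10.63, those labelled 21W28D 11.26, 12.16 and 11.70, and those of 21W35D 11.43, 8.92 and 11.00. The 3 piglets of S14D were spread over 3.02 log2 units, against 0.53 over the 4 piglets of S21D. The lowest reading of the 20 arrays was S14D replicate 3, and 21W35D replicate 2 and S35D replicate 1 were the next lowest.

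FAM129C was read by 3 probe sets. The brightest gave 4.998, 4.82 and 3.15 in S14D, 5.66, 6.18, 7.16 and 6.01 in S21D, and 4.99, 6.63, 5.88 and 7.02 in S28D. It gave 3.51, 3.45 and 4.03 in the arrays labelled S35D, 5.18, 6.21 and 5.30 in those labelled 21W28D, and 5.25, 3.45 and 4.90 in 21W35D. The arrays labelled S35D were the lowest group (3.66 ± 0.32), and 2 of their 3 values did not reach 4 log2 units. The second probe set ran from 2.08 to 5.61, with 10 of 20 arrays reaching 4. It was highest in S28D (4.82 ± 0.76) and S21D (4.50 ± 0.67), and its lowest mean was in S14D (2.70 ± 0.50), with the arrays labelled S35D at 2.87 ± 0.70. The third never reached 4 log2 units and gives no information on the gene.

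**Figure D1:**
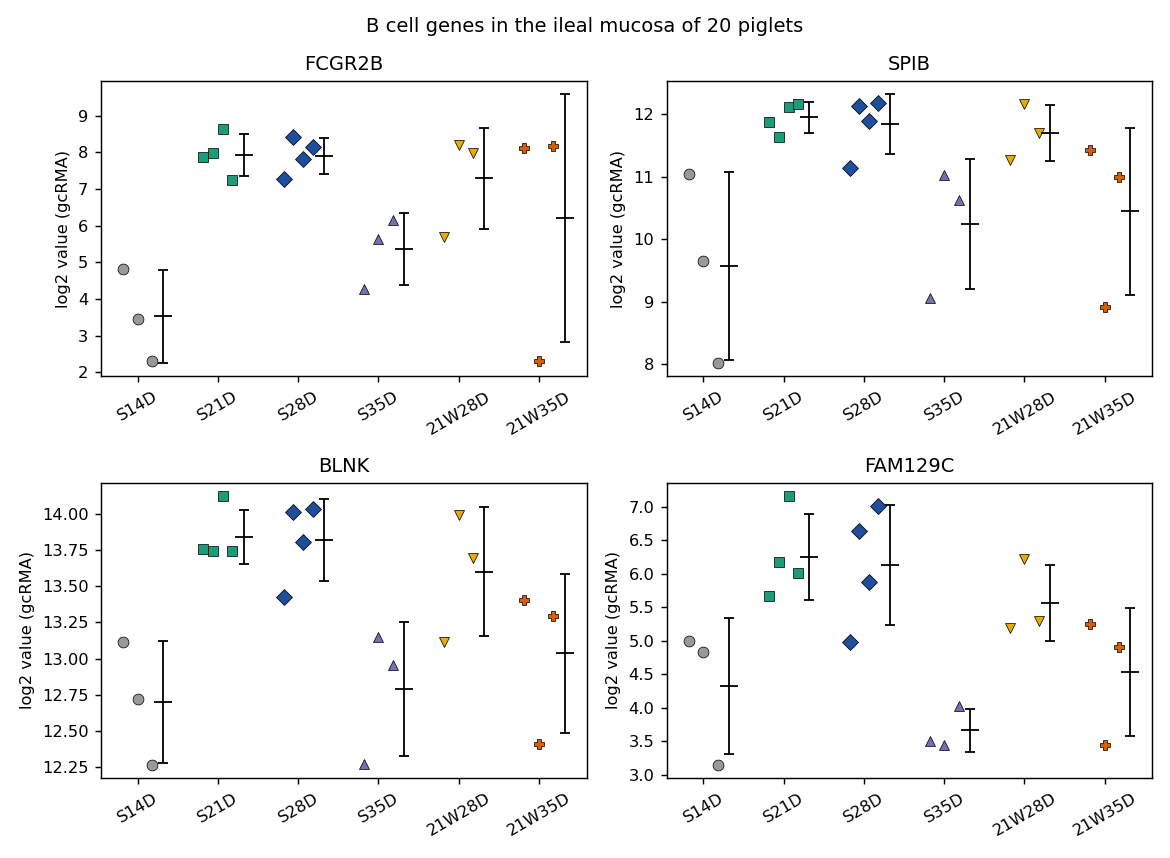
The log2 value of each of the 4 genes (vertical axes, gcRMA, brightest probe set) in each of 20 arrays, by group. Points are piglets, and the horizontal mark with its bar is the group mean ± SD. S21D and S28D have the highest means for all 4 genes, and in 21W35D 1 of 3 piglets lies far below the other two.

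The order of the group means was S21D, S28D, 21W28D, 21W35D, S35D and S14D from high to low for FCGR2B, SPIB and BLNK. For the brightest probe set of FAM129C the last pair was reversed, with S14D (4.33 ± 1.02) above S35D (3.66 ± 0.32), which the second probe set did not repeat. Each pair of neighbours in these orders overlapped in its single values. With the 2 doubtful labels exchanged, S35D would take the third place and 21W28D the place beside S14D.

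From S14D to S21D all 4 genes were higher. FCGR2B was 21.3-fold higher (log2 difference 4.42, SE 1.17), and since 2 of its S14D arrays were under 4 log2 units the fold depends on the floor. SPIB was 5.21-fold higher (2.38, SE 0.69), FAM129C 3.80-fold (1.93, SE 0.58) and BLNK 2.21-fold (1.14, SE 0.29). Of the 6 probe sets, 5 passed an adjusted p of 0.05 in limma, all higher in S21D, where 7.27% of all 23999 probe sets passed as higher and 7.63% as lower. The genes were chosen with this comparison known, and nothing is read from that count. In bulk mucosa, fewer B cells and less RNA per cell cannot be told apart, and this holds for every comparison here.

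Between S21D and S28D the means of the 4 genes lay close together. The log2 differences were -0.02 for FCGR2B (SE 1.08), -0.11 for SPIB (SE 0.64), -0.02 for BLNK (SE 0.27) and -0.12 for FAM129C (SE 0.54), and 0 of 6 probe sets passed, against 0.00417% of all probe sets. Each difference was smaller than its standard error.

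From S28D to the arrays labelled S35D all 4 genes were lower. FCGR2B was lower by a log2 difference of -2.56 (SE 1.17), FAM129C by -2.47 (SE 0.58), SPIB by -1.60 (SE 0.69) and BLNK by -1.03 (SE 0.29). FAM129C, chosen from this comparison, was the 1 probe set of 6 that passed, where 3.01% of all probe sets passed as lower and 3.53% as higher. With the labels exchanged the same differences shrank to -0.62, -0.56, -0.13 and -0.22 in that order, and 0% of all probe sets passed. The lower values thus belong to the 3 arrays labelled S35D, and whether they belong to suckling piglets of 35 days rests on the label.

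Weaned piglets were set against suckling piglets of the same age, and with the labels as deposited no member probe set passed in either pair. At 28 days the differences from S28D to 21W28D were -0.62 for FCGR2B, -0.13 for SPIB, -0.22 for BLNK and -0.56 for FAM129C, where 0% of all probe sets passed. With the labels exchanged they became -2.56, -1.60, -1.03 and -2.47, and FAM129C passed, where 6.54% of all probe sets did. The paper reports B cell receptor signalling among the pathways lowered in weaned piglets at the younger age. With the labels as deposited no call of that kind was made here. With the labels exchanged only FAM129C was called lower. At 35 days the differences from S35D to 21W35D were 0.85, 0.21, 0.24 and 0.87 in the same order, where 0.0458% of all probe sets passed. Exchanging the labels turned all 4 signs, to -1.09, -1.26, -0.57 and -1.03. The signs at 35 days thus depend on the labels, and at 28 days the size does.

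The piglets at weaning and the weaned piglets can be compared without the array labels in doubt through S21D and 21W35D. The weaned piglets were also older, at 35 against 21 days. Age and weaning therefore cannot be told apart wherever weaned piglets are set against S21D. All 4 genes had lower means in 21W35D, by log2 differences of -1.74 for FCGR2B (SE 1.17), -1.50 for SPIB (SE 0.69), -0.81 for BLNK (SE 0.29) and -1.72 for FAM129C (SE 0.58). No member probe set passed, where 0.296% of all probe sets did. The value for FCGR2B came from 21W35D replicate 2. Without that array FCGR2B differed by 0.22, while SPIB, BLNK and FAM129C still differed by -0.74, -0.49 and -1.18. For FCGR2B 2 of 3 arrays of 21W35D were inside the S21D range. Macrophage genes, as the mean log2 value of the 4 that reached 4 log2 units, centred on the 20 arrays, were higher in replicates 1 and 3 of 21W35D (1.19 and 1.26) than in any array of another group, and its part in the FCGR2B values was not tested.

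The 2 remaining comparisons both use the arrays labelled 21W28D. From S21D to 21W28D the differences were -0.64 for FCGR2B, -0.24 for SPIB, -0.24 for BLNK and -0.69 for FAM129C, with 0% of all probe sets passing, and they became -2.58, -1.71, -1.05 and -2.59 with the labels exchanged, where FAM129C passed with 3.57% of all probe sets. From 21W28D to 21W35D they were -1.09, -1.26, -0.57 and -1.03, with 0.0792% of all probe sets passing, and 0.85, 0.21, 0.24 and 0.87 with the labels exchanged. These comparisons share arrays with those above and are not further evidence of them.

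**Figure D2:**
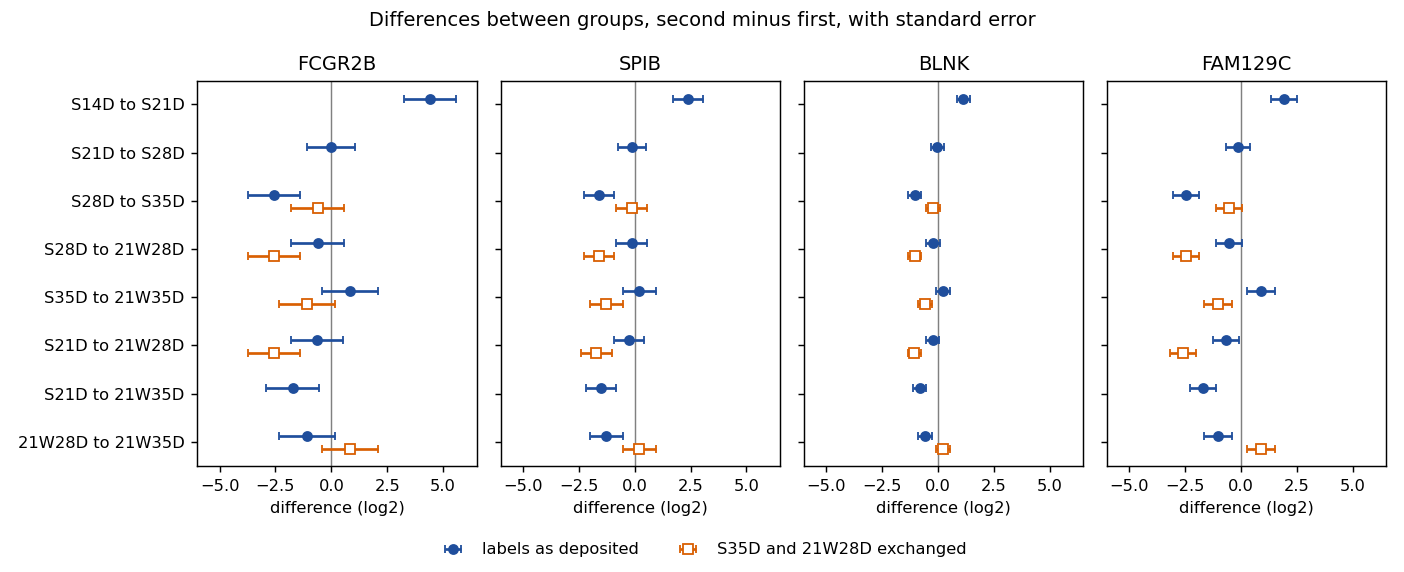
Log2 difference between 2 groups (horizontal axis, second minus first, bars are the standard error of the limma fit) for each gene and comparison. Filled circles use the labels as deposited and open squares the labels of S35D and 21W28D exchanged. Every comparison with either group moves with the exchange, and S14D to S21D does not involve them.

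Over single piglets the 4 genes went up and down together. Pearson's r over the 20 arrays was highest for SPIB and BLNK (0.96, Spearman's rho 0.93) and lowest for FCGR2B and FAM129C (0.80, rho 0.82). After the group means were taken off, r was 0.92 and 0.72 for these pairs, so the piglets within a group also differed in the genes together. Leaving out the 2 arrays farthest from the median gave 0.96 and 0.70. The points share arrays and normalisation, and the genes were chosen together, so these are descriptions with no p. Of the 5 lowest arrays of each gene, 3 were common to all 4 genes (S14D replicate 3, S35D replicate 1 and 21W35D replicate 2), and of the 5 highest, 4 were common (S21D replicate 3, S28D replicates 2 and 4 and 21W28D replicate 2). In the Sscrofa11.1 gene order FCGR2B lies beside FCGR3A, an activating Fc receptor of natural killer cells and macrophages, which had an r of 0.12 with FCGR2B.

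The rest of the B cell programme was followed in a list of 78 other B cell genes. Of these, 25 had a named probe set and 20 reached 4 log2 units in some array. From S14D to S21D 6 of 25 rose and none fell in limma after adjustment over all probe sets, beside 7.27% of all probe sets. The 6 were the transcription factors IRF8 (2.51, SE 0.54, adjusted p = 0.0086) and SPI1 (2.12, SE 0.58, adjusted p = 0.027), the kinase LYN (0.69, SE 0.18, adjusted p = 0.020), the exchange factor VAV1 (2.20, SE 0.67, adjusted p = 0.040), the leukocyte tetraspanin CD53 (2.14, SE 0.61, adjusted p = 0.031) and the costimulatory ligand CD86 (2.10, SE 0.36, adjusted p = 0.0023). All 6 are made by myeloid cells as well as B cells, and VAV1 and CD53 also by T cells. The median difference over the 25 genes was 2.12, with 21 positive and 2 negative, where the median over all probe sets was 0.

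The count rested on single piglets of S14D. It was 13 without S14D replicate 1, 2 without S14D replicate 2 and 1 without S14D replicate 3. Among S21D it was 3 without replicate 1, 4 without replicate 2, 2 without replicate 3 and 3 without replicate 4. CD86 was called in each of these fits, but its r with the mean of the 4 genes over the 20 arrays was 0.45 (Spearman's rho 0.07). The median difference of the list stayed between 1.43 and 2.70. CD79B, the signalling chain of the B cell receptor, averaged 8.02 ± 4.07 in S14D and 11.76 ± 0.33 in S21D, a difference of 3.74 (SE 1.91) that did not pass (adjusted p = 0.21). The receptor kinase BTK differed by 3.12 (SE 1.26, adjusted p = 0.11) and the T cell help receptor CD40 by 2.63 (SE 0.87, adjusted p = 0.056). In all of CD79B, BTK and CD40 the piglets of S14D had a larger SD than those of S21D, as they had for FCGR2B and SPIB.

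From S28D to the arrays labelled S35D, 0 of the 25 other B cell genes passed in limma, where 3.01% of all probe sets passed as lower and 3.53% as higher. At an unadjusted p under 0.05 in limma, 11 of them differed, all lower, beside 5600 of all 23999 probe sets in either direction. The methods' t-test with its fold limit counted 12, beside 1530 of all probe sets. The median difference of the 25 genes was -1.41, with 21 negative, and it became -0.21 with the labels exchanged. CD79B averaged 11.94 ± 0.49 in S28D and 9.55 ± 2.32 in the arrays labelled S35D (-2.40, SE 1.91, adjusted p = 0.52), and differed by -0.21 with the labels exchanged. CD83, a surface protein of activated B cells and dendritic cells, had the lowest difference at -3.07 (SE 1.33, adjusted p = 0.18), which became -0.30 with the labels exchanged. CD86 was the exception among the genes above the floor at 0.16, or -0.37 with the labels exchanged.

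In the weaned comparisons none of the 25 passed in limma either. Of all 23999 probe sets, 451 had an unadjusted p under 0.05 in limma from S28D to 21W28D and 1406 from S35D to 21W35D. The number was 2698 from S21D to 21W35D, 2126 from 21W28D to 21W35D, 606 from S21D to 21W28D and 389 from S21D to S28D. From S28D to 21W28D the median of the 25 genes was -0.21 and 0 of them had an unadjusted p under 0.05, and with the labels exchanged their median was -1.41. From S35D to 21W35D it was 0.19, with 1 such gene, higher, and it became -1.04 with the labels exchanged and 1.04 without 21W35D replicate 2. From S21D to 21W35D it was -0.95, with 1 such gene higher and 3 lower, and it became -0.10 without 21W35D replicate 2. From 21W28D to 21W35D it was -1.04, with 1 such gene higher and 1 lower, and it became 0.19 with the labels exchanged and -0.09 without 21W35D replicate 2. The suckling piglets of S21D and S28D differed by a median of 0.11 with no such gene, and S21D and 21W28D by a median of -0.02, also with none, which became -1.27 with the labels exchanged.

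**Figure D3:**
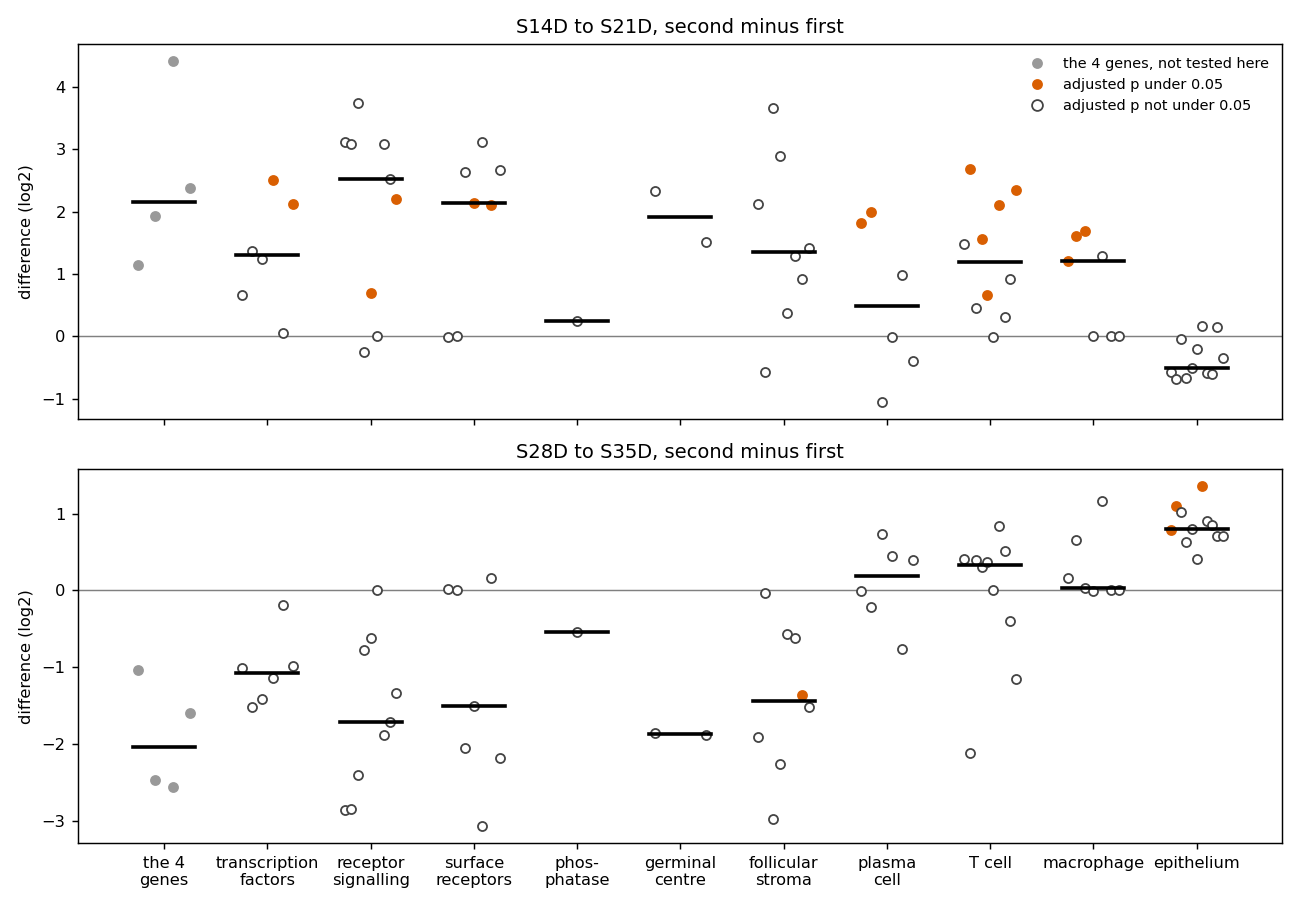
Log2 difference (vertical axes, second minus first) of the 4 genes and of each measured gene of the B cell lists and of the lists of other cell types, from S14D to S21D above and from S28D to S35D below. Bars are list medians, filled orange points passed an adjusted p of 0.05 in limma, and the 4 genes are in grey. The B cell and stromal lists lie mostly above 0 in the upper panel and below 0 in the lower, and epithelial genes lie mostly on the other side.

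Other cell types were read from lists of their own, each summed up as a score, the mean over its genes that reached 4 log2 units of the log2 value minus that gene's mean over the 20 arrays. The score of the 4 genes ran from -2.60 in S14D replicate 3 to 1.48 in S21D replicate 3. It had an r of 0.96 with the score of the other B cell genes. The r was 0.93 with that of follicular stroma and 0.88 with the 2 measured M cell genes. After the group means were taken off it was 0.96 for the other B cell genes, 0.96 for follicular stroma and 0.95 for M cell genes. Follicular stroma are the cells that organise B cell follicles, and among them VCAM1, an adhesion molecule, had an r of 0.97 and the B cell chemokine CXCL13 an r of 0.82. The M cell gene GP2, a receptor for bacteria, had an r of 0.86. Epithelial genes ran the other way, with an r of -0.79 for the score and -0.84 for EPCAM, the epithelial adhesion molecule. The cell cycle score had an r of 0.89 (0.86 after the group means were taken off). Plasma cell, macrophage and plasmacytoid dendritic cell scores had an r of 0.38, 0.48 and -0.04, and 0.55, 0.74 and 0.09 after the group means were taken off. The score of 5 reference genes ran in a narrow range from -0.48 to 0.22 and had an r of 0.87, and its part in the values was not tested. All are descriptions over the same 20 arrays and normalisation.

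These lists moved with the comparisons above. From S14D to S21D 0 of 8 follicular stroma genes passed in limma (3 higher and 1 lower at an unadjusted p under 0.05, median 1.36), 10 of 12 cell cycle genes rose (median 1.99) and 5 of 10 T cell genes rose (median 1.20), beside 7.27% of all probe sets. Of 7 macrophage genes C1QA, C1QC and AIF1 rose (1.61, 1.69 and 1.22), and of 6 plasma cell genes JCHAIN and CD38 rose (2.00 and 1.82). Of the 5 reference genes 2 also rose, and all 5 differences were positive (median 0.36). At an unadjusted p under 0.05 in limma, 6822 of all 23999 probe sets differed from S14D to S21D. From S28D to the arrays labelled S35D 3 of 11 epithelial genes rose (median 0.81, all 11 positive) and 1 of 8 stroma genes fell, MFGE8 (-1.36, SE 0.38, adjusted p = 0.048), with a median of -1.44, beside 3.53% of all probe sets higher and 3.01% lower. T cell genes had 0 of 10 passing and a median of 0.34 there, with 1 gene lower at an unadjusted p under 0.05. With the labels exchanged no probe set of any list passed from S28D to S35D, and the medians became 0.21 for epithelial, -0.21 for stroma and 0.90 for T cell genes, with MFGE8 at -0.25. The part of these cells in the values of the 4 genes was not tested.

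T cell genes had another order of groups than the 4 genes. The T cell score was -1.13, -1.98 and -2.12 in S14D and 1.69, -0.10 and 1.66 in 21W35D. In S21D, where the 4 genes had their highest mean, it lay between -0.63 and 0.13. Its r with the 4 genes was 0.54 over all arrays and 0.92 after the group means were taken off. From S21D to 21W35D 1 of 10 T cell genes passed in limma, beside 0.296% of all probe sets and 0 of 25 other B cell genes. It was CD3G, a chain of the T cell receptor complex, which rose by 1.92 (SE 0.18, adjusted p = 0.0001). Of the 10 T cell genes 9 had a higher mean in 21W35D and 1 a lower one. The lower one was CD247, a chain of the same complex, with means of 8.87 in S21D and 7.57 in 21W35D.

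**Figure D4:**
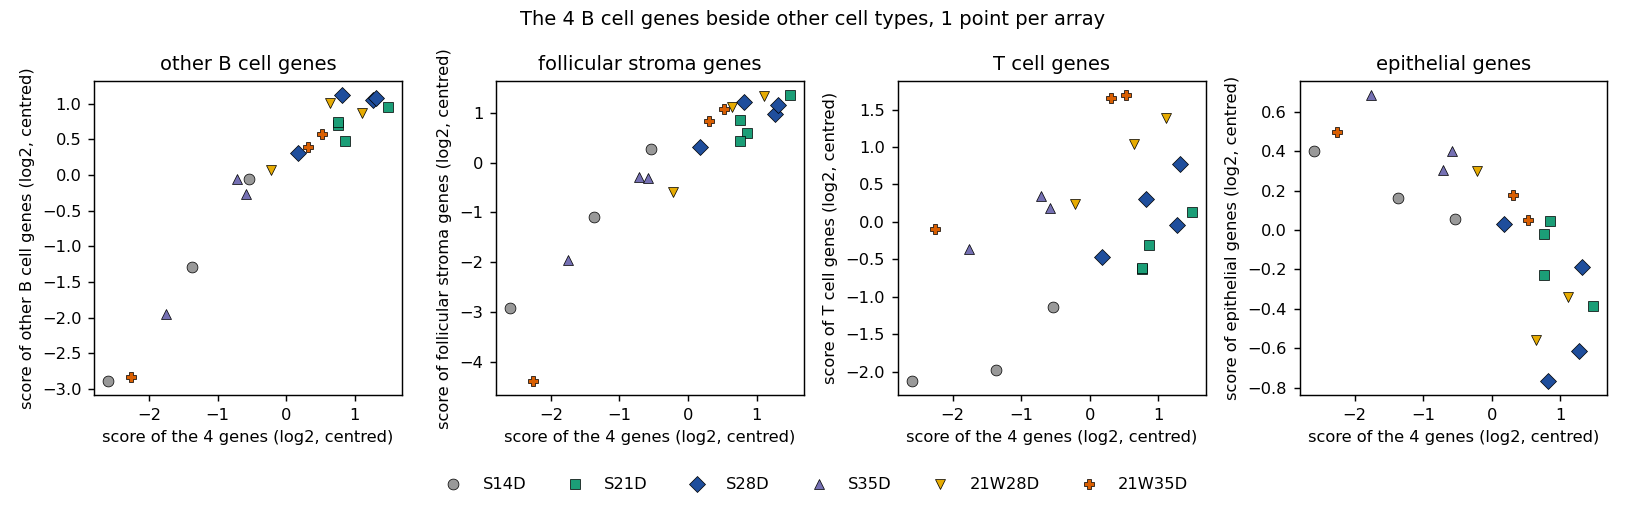
Score of the 4 genes (horizontal axes) against the scores of other B cell genes, follicular stroma, T cell and epithelial genes (vertical axes), all in log2 units centred on the 20 arrays. Each point is 1 array and its shape and colour give the group. The other B cell and stroma scores follow the 4 genes, epithelial genes run the other way, and in the T cell panel S14D lies lowest and 2 arrays of 21W35D highest.

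Most relatives of the 4 genes by family, read singly or as a score, had lower correlations with them over the 20 arrays. The adaptor LCP2, the relative of BLNK in T cells and myeloid cells, had an r of 0.61 with the score of the 4 genes, and FAM129A, a relative of FAM129C, had an r of 0.62. After the group means were taken off, r was 0.84 for LCP2 and 0.70 for FAM129A. The score of 5 other Ets family genes had an r of -0.28, although SPI1 among them had an r of 0.92. The score of the 4 other Fc receptor genes above the floor (FCGR3A, FCER1G, FCGRT and PIGR) had an r of -0.12. It mixes genes of leukocytes and of the epithelium. FCGR3A had an r of -0.05 and rose from S21D to 21W35D by 1.78 (SE 0.31, adjusted p = 0.033). FCER1G, the signalling chain of activating Fc receptors, rose from S14D to S21D by 1.38 (SE 0.24, adjusted p = 0.0023). FCGRT, the neonatal Fc receptor, fell from S14D to S21D by 0.75 on the log2 scale (SE 0.21, adjusted p = 0.031) and from S28D to the arrays labelled S35D it rose by 0.77 (SE 0.21, adjusted p = 0.046). PIGR, the epithelial transporter of immunoglobulin A, also rose there, by 1.83 (SE 0.45, adjusted p = 0.031), and with the labels exchanged neither was called in that comparison, at 0.11 for FCGRT and 1.46 for PIGR.

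The genes most like the 4 were found by Pearson's r with their score among 1688 genes that varied and were above the floor, of which 246 had an r of at least 0.9. The first was FHOD1, a formin that acts on actin (0.99), followed by LDHB, a lactate dehydrogenase subunit (0.98), SUGP2 (0.98) and CD247, the zeta chain of the T cell receptor (0.98). The next were WDR91, STK17A, CRLF3, RNF44, UPK1B, GP91-PHOX, QKI, NCF1, ARPC5L, UIMC1 and IL2RG, with an r between 0.97 and 0.98. GP91-PHOX and NCF1 are parts of the phagocyte oxidase, and IL2RG is the common chain of several cytokine receptors. UPK1B, a uroplakin, covered the widest range among them, from a mean of 4.35 in S14D to 8.90 in S21D and 5.32 in the arrays labelled S35D. The least like were CEBPG (-0.95), TOR1AIP2 (-0.95), PTGR2 (-0.94), TMEM181 (-0.94) and PRADC1 (-0.94). They were highest in S14D, where the 4 genes were low.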

How the data were processed

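Ileal mucosa RNA of 20 piglets was measured on 1 array each. The authors normalised the scans, and the deposited log2 values are gcRMA signals (GCOS 1.2 and GCRMA stand in the submitters' notes on processing), where dim probe sets share a floor. Of 24123 probe sets, 124 controls were left out. Of the rest, 10069 had 1 gene symbol, 198 several and 13732 none in the platform annotation, and only the first were named.

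limma 3.58.1 in R 4.3.3 fitted 1 mean per group over all 20 arrays, with Benjamini-Hochberg adjustment over 23999 probe sets, a threshold of 0.05 and no fold minimum. A gene was read by its brightest probe set. The script was tested on simulated data. The number of arrays limits the precision. The genes and lists were chosen with earlier results of these data known. Genes of a list were named where called, otherwise by the defining marker, and BTK, CD40, CD83 and CD86 were added after their values were seen. No 2 arrays correlated above 0.997, and none was counted as a duplicate. Alternatives were a filter on dim probe sets, other scalings and variance models, each array left out, the methods' t-test, the replicate number as a block and the labels of S35D and 21W28D exchanged. Same-numbered arrays did not deviate together (46 pairs, median r 0.03), so the numbers were not treated as pairs.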

Additional observations from a re-analysis of the deposited data

Results flagged for a closer look

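In the 2 groups of 4 arrays, 23 measures (46 tests) were looked at for a single array far from the other three, as the gap to its nearest neighbour over the range of the group, and chance marks about 1 in 20. In S21D, BLNK had a gap share of 0.96, from replicate 3 above the others, and the score of the 4 genes 0.87, from the same array. The macrophage score (0.84) and the erythrocyte score (0.83) were also marked in S21D. The FAM129C probe set at the floor had gap shares of 1.0 in both S21D and S28D, where 1 array rose off the floor value. In S28D the score of the other B cell genes had a gap share of 0.91, from replicate 1, which was below the other arrays (0.30 against 1.05 to 1.12).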

How the results depend on the processing

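From S14D to S21D, where 6 other B cell genes were called, the count was 10 with probe sets under 4 log2 units in 3 arrays left out, 3 with only the groups compared in the fit, 14 by the methods' t-test (unadjusted, with a fold minimum) and 3 by that test after Benjamini-Hochberg adjustment. Over all probe sets the unadjusted t-test counted 2521 from S14D to S21D and 1530 from S28D to S35D. With the replicate block the count of other B cell genes from S14D to S21D was 3 (CD86, IRF8 and LYN). Leaving out 1 array gave 1 to 13, lowest without S14D replicate 3 and highest without S14D replicate 1. From S28D to S35D, where 0 were called, it was 2 without dim probe sets (FOXO1 and LYN), 1 with a gene's probe sets averaged (LYN), 12 by the unadjusted t-test, and 0 to 1 with 1 array left out (LYN, without S28D replicate 1 or S35D replicate 2). From S35D, S21D and 21W28D to 21W35D the count was 0 to 1 with 1 array left out, the 1 being CD27 without 21W35D replicate 2, a probe set at the floor in every array. Of the 143 counts under these alternatives, 124 stayed within 1.5 times the main count, but most of these were counts of 0 that stayed at 0. From S14D to S21D, the only comparison with calls, most counts moved further than that. The replicate block changed no count in the other comparisons. No sign of a called difference of the 4 genes turned. Of their 324 alternative values 300 moved by less than the SD between piglets, and 24 moved further, 20 of them by the exchange of labels. The other 4 were FCGR2B without 21W35D replicate 2 in 3 comparisons, at 2.80 from S35D, 0.22 from S21D and 0.86 from 21W28D, and FAM129C from S28D to S35D as the mean of its probe sets, at -1.56, where 1 probe set lies at the floor. The causes were not tested. Values under 4 log2 units limit FCGR2B in S14D, and FAM129C in S14D and in the arrays labelled S35D, where a fold is bounded by the method. They also limit both genes in 21W35D replicate 2, at 2.29 for FCGR2B and 3.45 for FAM129C.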
